A study of Mus musculus with 8 samples.

Results

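Apol7c, Apol9a, Apol9b and Apol6 are members of the mouse apolipoprotein L family, and their levels were followed here in single cells of the colonic lamina propria of mice that had or had not lost the transporter subunit CD98hc. All genes whose symbol is Apol followed by a number were taken from the table of counts, which gave 12 of its 16889 genes: the 4 named ones and Apol7a, Apol7b, Apol7d, Apol7e, Apol8, Apol10a, Apol10b and Apol11b. The family was picked with levels by cell type and by condition already known, among them the low Apol7c of macrophages of the knockout mice, so those values are given as a description and without a test.

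The samples were CD11b+ cells sorted for CCR2 or CD64 from 8 female CD98hcΔCX3CR1 mice aged 6 to 12 weeks, 1 library per mouse. These littermates carry CD98hc flox/flox and Cx3cr1CreER-YFP, so that tamoxifen removes exon 3 of the CD98hc gene in cells that express the chemokine receptor CX3CR1, which monocytes and macrophages do. The 4 control mice (replicates 1 to 4) received corn oil, and the 4 conditional knockout mice (cKO, replicates 5 to 8) received 100 µl of tamoxifen at 20 mg/ml, in both cases on 5 consecutive days with the readout at day 7. Tamoxifen itself and the deletion cannot be told apart in this design. All libraries were prepared on 1 day in 1 cartridge, and each mouse counted as 1 replicate.

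Apolipoprotein L proteins are a family of membrane-active proteins, best known for human APOL1, which travels on high-density lipoprotein and lyses trypanosomes, whereas most of its relatives stay inside the cell. Mouse APOL7C has been described in dendritic cells, where it inserts into phagosome membranes and helps cross-presentation of engulfed antigen. Apol9a and Apol9b are known as interferon-induced genes, and the intestinal lamina propria is rich in macrophages that engulf dying cells and arise from blood monocytes.

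On the GRCm38 (mm10) assembly, 11 of the 12 genes lie together on chromosome 15 between 77044729 and 77757003. Apol7c (ENSMUSG00000044309) occupies chr15:77524852-77533316 on the minus strand, Apol9a (ENSMUSG00000057346) chr15:77403789-77411135 on the minus strand, Apol9b (ENSMUSG00000068246) chr15:77729039-77736382 on the plus strand and Apol6 (ENSMUSG00000033576) chr15:77044729-77057106 on the plus strand. Apol7d is an exception, since the annotation places it on chromosome 1 as an antisense transcript.

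Because the type I interferon genes of these cells are described below together with the Apol9 pair, the RefSeq promoter windows (GRCm38.p6, 250 bases before to 50 bases after an annotated start) were searched on both strands for GAAANNGAAA, the core of the element that interferon-activated factors bind. A RefSeq window was at hand for 10 of the 12 genes, with Apol6 and Apol7d lacking one. The 250 bases before the start are shown, 5′ to 3′ on the gene's strand, for the Apol9 pair, whose levels were higher in the knockout mice, with every base that belongs to a match in capitals.
Apol9a, chr15:77411081-77411330, minus strand: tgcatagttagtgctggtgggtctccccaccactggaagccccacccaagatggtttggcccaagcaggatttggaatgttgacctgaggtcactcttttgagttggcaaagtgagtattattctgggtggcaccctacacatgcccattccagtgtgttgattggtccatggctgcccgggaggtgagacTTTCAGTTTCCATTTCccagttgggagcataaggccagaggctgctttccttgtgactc
Apol9b, chr15:77728822-77729071, plus strand: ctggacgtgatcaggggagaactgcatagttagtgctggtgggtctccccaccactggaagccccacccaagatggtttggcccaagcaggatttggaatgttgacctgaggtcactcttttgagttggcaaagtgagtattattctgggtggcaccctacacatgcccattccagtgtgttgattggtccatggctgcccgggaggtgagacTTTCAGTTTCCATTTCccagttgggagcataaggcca

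In the Apol7c window, 2 overlapping matches on the opposite strand made up the run TTTCTCTTTCCTTTTC, which lay 55 to 40 bases before the start. Apol9a and Apol9b had 2 windows each, and all held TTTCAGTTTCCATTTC, again 2 overlapping matches. For Apol9a this run lay 59 to 44 bases before 1 start and 105 to 90 before the other. For Apol9b it lay 37 to 22 bases before 1 start and 86 to 71 before the other. Apol7e held TTTCTCTTTCGTTTTC at 36 to 21 bases before its start, and Apol7b had no match, although the Apol7b and Apol7e windows were 97.7% identical over 300 aligned bases. A match stood in the windows of 7 of the 10 Apol genes (also Apol10a, Apol10b and Apol11b) and in 1131 of all 32851 RefSeq windows, or 3.44%. The Apol share counts genes and the overall share counts windows. Some Apol windows are also near copies (Apol9a and Apol9b 100% identical over 281 aligned bases), so no enrichment is read from these shares. Such a match describes letters, and whether any factor binds there was not measured.

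Of 5947 deposited barcodes, 3213 cells passed the limits on counts and on mitochondrial share (1863 control, 1350 cKO). Per mouse these were 85 to 724 control cells and 83 to 484 cKO cells, with 589135 to 3762314 control and 497531 to 2486236 cKO unique molecular identifiers (UMIs, each standing for 1 captured transcript). Control replicate 3 and cKO replicate 5 were the smallest libraries, and of the 83 cells of cKO replicate 5, 24 were marked as doublets against 2 to 16 cells in the other libraries. Libraries shared 25 barcode names. Clustering without the Apol genes and the gene lists described below gave 9 clusters. They were macrophage-like (cluster 4, 697 cells, led by Fcrls and C1qc), macrophage-like with few UMIs (cluster 5, 245 cells), monocyte-like (cluster 3, 521 cells with Chil3 and Lyz1, and cluster 6, 422 cells with Dmkn and F10), dendritic cell-like (cluster 9, 505 cells), lymphoid-like (cluster 1, 181 cells) and stromal-like (cluster 8, 86 cells), while cluster 2 (206 cells, Ccl24 and Vegfa) and cluster 7 (350 cells, Saa3 and Ccl5) were left unnamed. The sorted cells were thus not monocytes and macrophages alone. Slc3a2, the gene of CD98hc, stood at 232.5 to 493.1 UMIs per 1000000 UMIs counted (CPM) in control and 291.4 to 357.3 CPM in cKO mice (log2 fold change, cKO against control, 0.02 ± 0.21, with its standard error, SE), and at 302.2 to 379.5 against 281.4 to 360.4 CPM in cluster 4. This checks nothing, since tags from the 3′ end lie outside the removed exon.

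Apol7c was by far the most counted gene of the family, with 1237 UMIs in 226 of the 3213 cells. Apol7a followed with 86 UMIs in 47 cells and Apol10b with 36 UMIs in 27 cells, whereas Apol9b, Apol9a, Apol7b, Apol7e and Apol7d had between 8 and 23 UMIs each. Apol6, Apol10a and Apol11b had 2 UMIs each, and Apol8 had none in the cells kept. These are counts of captured molecules and do not rank the genes by true transcript number, because the 3′ ends may be captured unequally.

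**Figure D1:**
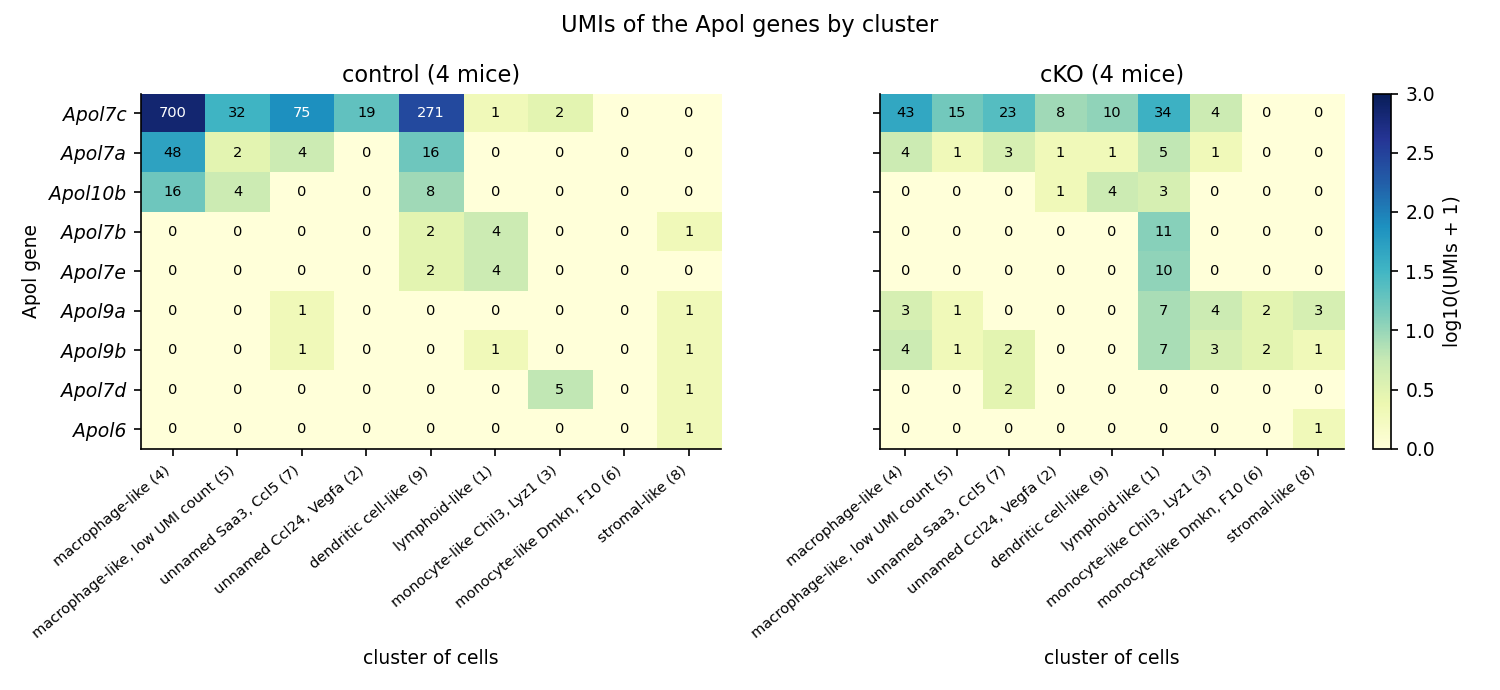
UMIs of 9 Apol genes (rows) summed over the cells of each cluster (columns), for the 4 control mice on the left and the 4 cKO mice on the right, with the number printed in each field and colour showing log10(UMIs + 1). Apol7c had 700 UMIs in control and 43 in cKO macrophage-like cells, Apol7b and Apol7e were counted mainly in lymphoid-like cells, and Apol9a and Apol9b mainly in cKO cells.

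Apol7c was mostly a transcript of macrophage-like cells in control mice. In cluster 4 it stood at 176.5, 316.8, 99.9 and 303.1 CPM in control replicates 1 to 4 (mean 224 ± 104 SD, n = 4). The macrophage-like cells with few UMIs had levels of the same order, 90.6, 264.5 and 426.9 CPM in the control replicates 1, 2 and 4, which had at least 20 such cells. These levels overlapped with those of cluster 4, which was higher in 2 and lower in 4 of 6 mice. Control cells of unnamed cluster 7 had 200 and 35.3 CPM in replicates 1 and 4, and cluster 4 exceeded cluster 7 in 4 of 5 mice. Unnamed cluster 2 had 26.7 and 57.5 CPM in replicates 1 and 4, the control mice with at least 20 such cells.

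Monocyte-like cells carried almost none of it. In cluster 3, 4 of 521 cells held 6 Apol7c UMIs in all, and in cluster 6 there were 0 of 422 cells with a UMI, which allows a share of up to 0.711%. Cluster 4 lay above cluster 3 in 6 of 6 mice and above cluster 6 in 4 of 4 mice. Stromal-like cells, which gave a background for free RNA, had 0 of 86 cells with a UMI at a median of 4824 UMIs per cell, which allows up to 3.49%.

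The dendritic cell-like cells lay between clusters 4 and 3 with the deepest counts, a median of 9290 UMIs per cell against 5192 in cluster 4. Their Apol7c level was 16.5, 80.7, 0 and 122.5 CPM in control replicates 1 to 4, and 21.4, 27.7 and 0 CPM in cKO replicates 6 to 8. Within mice it lay below that of cluster 4 in 7 of 7 mice, by 1.93 ± 1.05 (SD) on the scale of log2(CPM + 10), and above that of monocyte-like cluster 3 in 5 of 6 mice, by 1.64 ± 1.32. These differences are a description, since levels by cell type were known when the family was picked.

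**Figure D2:**
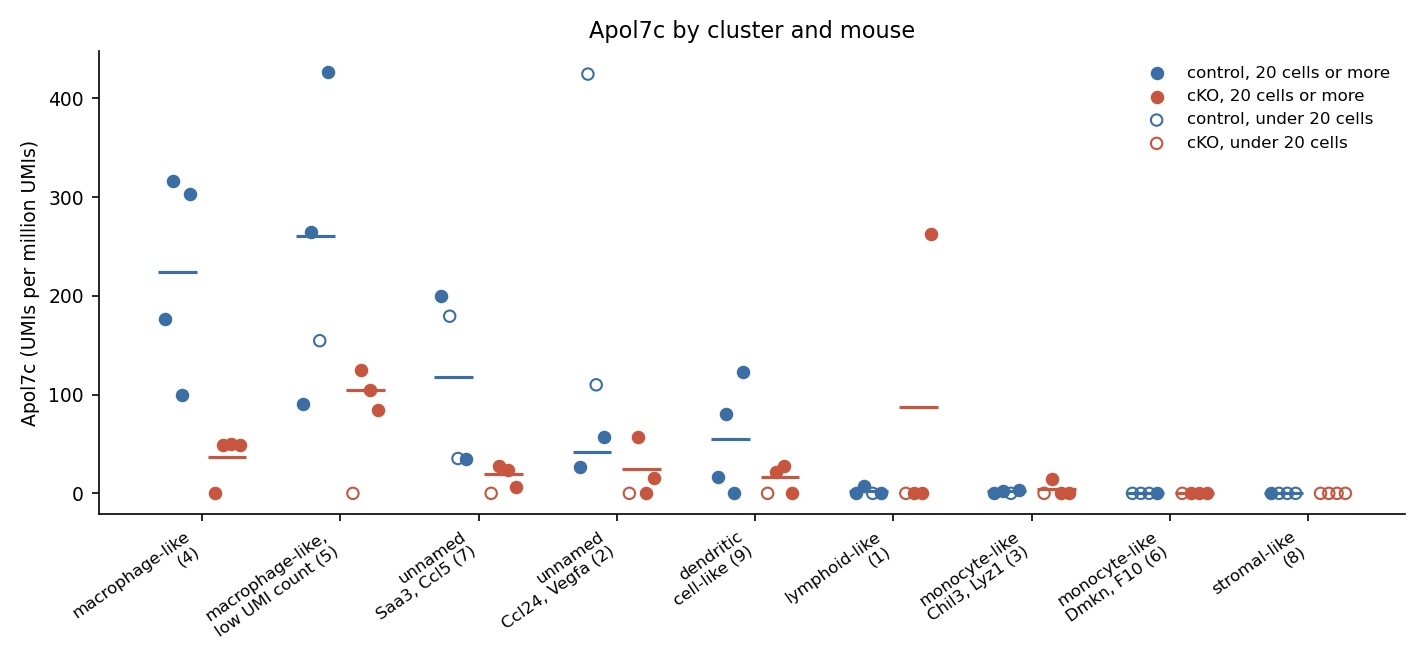
Apol7c in CPM (linear axis) for each mouse in each cluster, control in blue and cKO in red. Filled points are mice with at least 20 cells in the cluster, open points mice with fewer, and bars are means over the filled points. The 4 control values of cluster 4 (99.9 to 316.8) all lie above the 4 cKO values (0 to 50.3).

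In cKO mice, Apol7c was low in the macrophage-like cells. Cluster 4 had 0, 49.0, 50.3 and 48.6 CPM in cKO replicates 5 to 8 (mean 37.0 ± 24.7 SD, n = 4), so that every cKO mouse lay below every control mouse. The means differed 6.06-fold, and the fitted log2 fold change was -2.54 ± 0.58 (SE, edgeR). Over all genes tested in these cells, 2.54% had all cKO mice below all control mice, 0.153% were called lower in cKO and 0.486% higher, and the median log2 fold change was -0.07. Of the 4 family members tested there, Apol7c and Apol7a had groups that did not overlap. This contrast is the one for which Apol7c was picked, so nothing is read from those shares.

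The low level rested on few cKO cells. Cluster 4 made up 32.7, 37.2, 27.1 and 15.1% of the control cells and 24.1, 14.3, 6.405 and 14.98% of the cKO cells, and the 20 macrophage-like cells of cKO replicate 5 had 122541 UMIs in all, where 3 counts would make 24.5 CPM. Without control replicate 3 and cKO replicate 5 the means still differed 5.38-fold. DESeq2 gave nearly the same log2 fold change with a wider error, -2.66 ± 1.27.

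A smaller share of cKO cells held the transcript, and the cells richest in it were control cells. At least 1 Apol7c UMI was seen in 117 of 531 control cells of cluster 4, or 22.0% (95% exact binomial interval 18.6 to 25.8%), and in 11 of 166 cKO cells, or 6.63% (3.35 to 11.6%), at median depths of 5126 and 5454 UMIs. With every cell thinned to 1000 UMIs, leaving out 7 control and 2 cKO cells that were shallower, the shares were 9.951% (7.501 to 12.81%) and 2.56% (0.669 to 6.13%). These intervals cover counting error only. The richest control cell had 42 Apol7c UMIs and the richest cKO cell 9. At least 5 UMIs were found in 36 control and 5 cKO cells. Among the cells with any, the median was 2 UMIs in control and 3 in cKO. By mouse, cells with a UMI numbered 41 of 237, 57 of 188, 4 of 23 and 15 of 83 in control, and 0 of 20, 3 of 50, 3 of 31 and 5 of 65 in cKO.

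**Figure D3:**
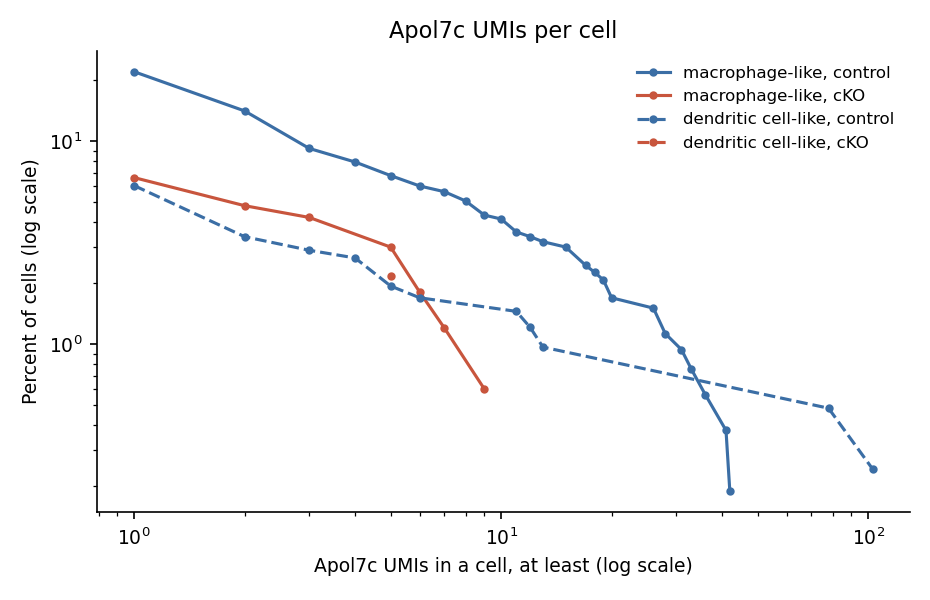
Share of cells (percent, log axis) with at least a given number of Apol7c UMIs (log axis), solid lines for macrophage-like cells of cluster 4 and dashed lines for dendritic cell-like cells, control in blue and cKO in red (the 2 cKO dendritic cell-like cells with 5 UMIs each are 1 point). The control macrophage-like line runs from 22.0% of cells at 1 UMI to a cell with 42 UMIs, the cKO line from 6.63% to a cell with 9, and 2 control dendritic cell-like cells stand apart at 78 and 103 UMIs.

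Apol7c was uneven among the control macrophage-like cells themselves. The 10 richest cells held 43.1% of the 700 UMIs, and cells with a UMI were deeper (median 6856 UMIs) than cells without (4732). With the 10 richest control cells removed, the control mice stood at 120.3, 168.5, 99.9 and 163.5 CPM, still above every cKO mouse. When 12 clusters were made in place of 9, the part of cluster 4 led by Fcrls, H2-M2 and Pf4 had Apol7c in 84 of 291 control and 6 of 53 cKO cells, although its cKO mice had only 4 to 25 such cells each. The rest of cluster 4 had it in 33 of 240 control and 5 of 113 cKO cells. Graph clustering drew this part more narrowly, with 251 control and 26 cKO cells (5 to 8 per mouse), of which 74 and 0 had a UMI. The pooled level there was 389 CPM in control against 0 of 146217 UMIs in cKO, at least 18.9-fold lower when 3 counts over the cKO group are taken as the floor. This bound leaves out the spread between mice. The other, larger macrophage-like graph cluster, with 366 control and 292 cKO cells, had pooled levels of 82.6 CPM in control and 39.3 CPM in cKO. Control and cKO cells thus fell unequally on these parts, and the share of the 6.06-fold difference within cluster 4 that goes with this was not tested.

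Markers of other cells were measured in the same macrophage-like cells, where 0.486% of all genes tested were called higher and 0.153% lower. The 19 macrophage markers, none of them at 0, summed to 42460 to 67380 CPM in control and 32110 to 47920 in cKO mice, and of the 18 tested by edgeR 0 rose and 0 fell at an adjusted p of 0.05, with 10 under an unadjusted p of 0.05, 0 called by DESeq2 and a median log2 fold change of -0.50. The 10 monocyte markers, none at 0, summed to 628 to 1406 CPM in control and 1173 to 2342 in cKO mice, and 3 of them rose, namely Ly6c2 (log2 fold change 2.97 ± 0.51 SE, adjusted p = 0.00016), Chil3 (1.85 ± 0.47, adjusted p = 0.039) and Plac8 (1.52 ± 0.30, adjusted p = 0.0022). The 16 dendritic cell markers, none at 0, summed to 780 to 892 and 710 to 896 CPM, with Ifi205, also an interferon gene, higher (1.49 ± 0.30, adjusted p = 0.0027), the 9 stromal markers to 85.7 to 108.8 and 75.5 to 146.9, and the 16 lymphoid markers, 1 of them at 0, to 221 to 936 in control and 483 to 972 in cKO mice other than replicate 6, which had 5162. The part of these cells in the Apol7c difference was not tested.

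Over all cells together, Apol7c stood at 76.5, 146.2, 39.0 and 104.7 CPM in control (mean 91.6 ± 45.2 SD, n = 4) and at 0, 25.4, 13.3 and 27.1 CPM in cKO mice (16.4 ± 12.6, n = 4). The groups did not overlap and the log2 fold change was -2.22 ± 0.46 (SE). Of the 5 family members tested over all cells, Apol7c and Apol7a lay lower in every cKO than in every control mouse, against 8.34% of all 11387 genes tested, and Apol9b lay higher, against 4.00%. The order of Apol7a is uncertain, since its lowest control value was 3.67 CPM and its highest cKO value 3.63 CPM. In cKO replicate 5, 3 counts would make 6.03 CPM. In sums over all cells, fewer cells of a type and less RNA per cell cannot be told apart. Dendritic cell-like, lymphoid-like and stromal-like cells left out, the log2 fold change was -3.01. Macrophage-like cells of cluster 4 held 63.6% of the control Apol7c UMIs in 28.5% of the cells, and 31.4% of the cKO UMIs in 12.3% of the cells.

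Outside cluster 4 the contrast was less even. In the macrophage-like cells with few UMIs, cKO replicates 6 to 8 had 124.9, 104.2 and 84.8 CPM, overlapping the control values, and the log2 fold change was -1.08 ± 0.999 (SE). In unnamed cluster 7 the cKO replicates 6 to 8 had 27.5, 23.8 and 6.02 CPM (log2 fold change -2.24 ± 0.85). In dendritic cell-like cells the groups overlapped, with a log2 fold change of -2.28 ± 0.88. Whether these changes differ between clusters was not tested.

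A few cells with genes of migrating dendritic cells held the highest Apol7c counts. Cells with UMIs of both Ccr7, the receptor that guides dendritic cells to lymph nodes, and Fscn1, an actin-bundling protein of mature dendritic cells, were singled out after their values had been seen. There were 11 such cells in control mice, 8 of them in the dendritic cell-like cluster, and 5 of the 11 carried 103, 78, 8, 8 and 5 Apol7c UMIs. Control replicate 2 gave 78 of these UMIs from 1 cell, control replicate 4 gave 124 from 9 cells, and replicate 3 gave 0 from 1 cell. The only such cKO cell, from replicate 8, had 33 UMIs and fell in the lymphoid-like cluster, whose 262 CPM in that mouse came almost wholly from it. Without these cells, dendritic cell-like cells had 16.5, 29.7, 0 and 19.1 CPM in control replicates 1 to 4 and 21.4, 27.7 and 0 in cKO replicates 6 to 8, so the groups lay over each other.

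Doublets and shallow barcodes were few among the carriers. Of 187 control cells with Apol7c, 2 were marked as doublets, and of 39 cKO cells none was. The barcodes that failed the limits on cells held 18, 23, 0 and 5 Apol7c UMIs in control and 0, 4, 4 and 1 in cKO mice.

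Over 48 sums of 1 cluster in 1 mouse (at least 20 cells each), the genes outside the family whose log2(CPM + 10) went most like that of Apol7c were Zmynd15, a MYND zinc finger gene (Pearson r = 0.71), Pf4, the chemokine CXCL4 (0.69), Hpgds, which makes prostaglandin D2 (0.68), Ltc4s, leukotriene C4 synthase (0.67) and Hebp1, a heme-binding protein (0.66). Over the 23 control sums alone the values were 0.82, 0.76, 0.80, 0.70 and 0.70. The complement genes C1qa, C1qb and C1qc, picked afterwards as general macrophage genes, gave 0.61, 0.59 and 0.63. Sums of 1 mouse share a library and sums of 1 cluster a cell type, so these are not independent points. Zmynd15 itself stood at 199.8, 215.7, 157 and 201.4 CPM in control and 89.8, 126, 100.7 and 87.0 CPM in cKO macrophage-like cells, groups that did not overlap. Pf4 did overlap, at 335.5 to 1279 against 213.5 to 655, and so did Hpgds, Ltc4s and Hebp1. Over all genes tested in these cells, 2.54% had all cKO mice below all control mice. The 5 genes were picked over sums that included the cKO mice, so nothing is read from the Zmynd15 difference.

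**Figure D4:**
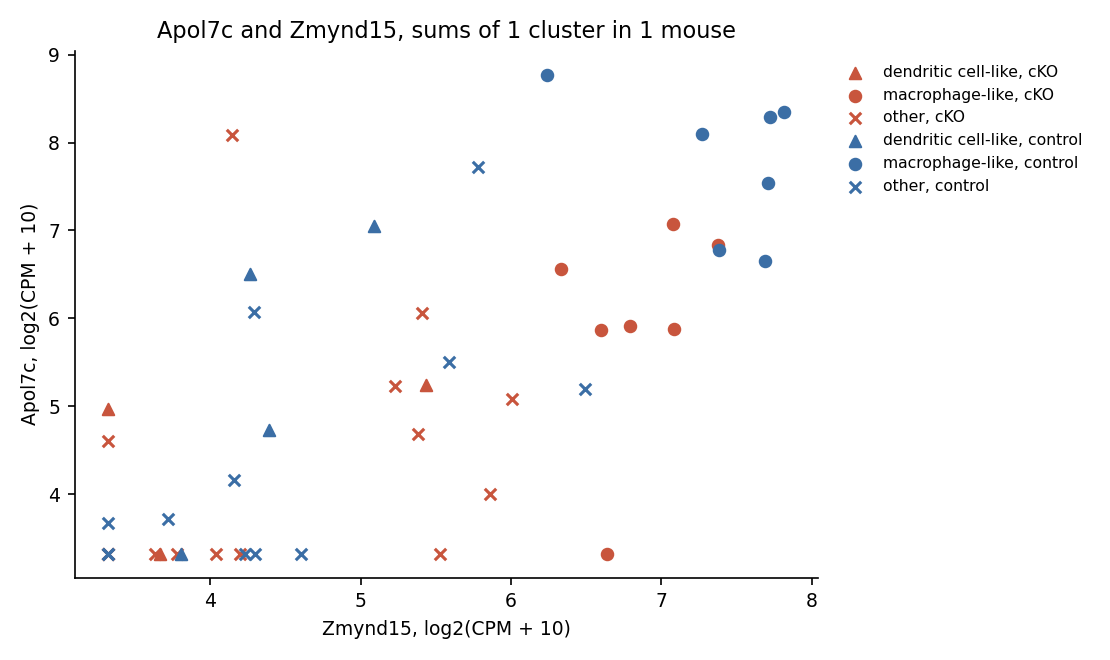
Apol7c against Zmynd15, both as log2(CPM + 10), in 48 sums of the cells of 1 cluster in 1 mouse with at least 20 cells, control in blue and cKO in red, circles for both macrophage-like clusters, triangles for dendritic cell-like cells and crosses for the rest. The macrophage-like sums lie on the right, most control ones at the top (r = 0.71 over all sums), and the cross at the upper left is the lymphoid-like cluster of cKO replicate 8.

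Apol7a went with Apol7c cell by cell. All 47 cells with an Apol7a UMI also had Apol7c, and these were 20.8% of the 226 Apol7c cells. Over all cells Apol7a stood at 3.99, 3.67, 8.49 and 12.8 CPM in control and 0, 3.63, 0.804 and 3.50 CPM in cKO mice (log2 fold change -1.45 ± 0.61 SE). In cluster 4 it stood at 10.4, 10.7, 28.6 and 43.3 CPM against 0, 7.00, 0 and 5.12 CPM (-2.24 ± 0.89), again without overlap. The cKO values were only 0, 2, 0 and 2 UMIs. In cKO replicates 5 and 7, 3 counts would make 24.5 and 15.1 CPM, above control replicates 1 and 2, so the lack of overlap is uncertain. Of the words of 58 bases (the read length) in the last 500 bases of Apol7c transcripts, 3.85% also occurred in Apol7a, and 2.04% of those of Apol7a in Apol7c. Reads of these words cannot be told apart. Only identical words were counted, so the full share of such reads was not measured.

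Apol10b was counted in 12 of 531 control and 0 of 166 cKO cells of cluster 4, 16 UMIs against 0, where a count of 0 allows a share of up to 1.81%. With 3 counts over the group as the floor, the pooled cKO level would be 1.85-fold lower. This leaves out counting error in the 16 control UMIs and the spread between mice, so it is no lower bound. Over all cells it stood at 2.66, 3.67, 3.40 and 1.35 CPM in control and 0, 2.42, 0.804 and 0.875 CPM in cKO mice, which overlapped (log2 fold change -1.05 ± 0.60 SE). It shared 15 of its 27 cells with Apol7c and no 58-base word.

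Apol7b and Apol7e, in contrast, were genes of the lymphoid-like cluster, with 15 of 18 and 14 of 16 UMIs there and none in macrophage-like or monocyte-like cells. Both were counted in the same 13 cells, of 15 and 14, with equal counts in 12. Since 68.1% of the 58-base words at the Apol7b 3′ end occurred in Apol7e and 73.0% in reverse, reads of the pair cannot be told apart at most positions. Over all cells Apol7b had 0, 2, 3 and 2 UMIs in control and 0, 3, 2 and 6 UMIs in cKO mice, too few to set the groups apart.

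Apol9a and Apol9b were rare and came mostly from cKO mice. Apol9a had 1, 0, 0 and 1 UMIs in control and 0, 4, 8 and 8 UMIs in cKO mice, and Apol9b 2, 0, 0 and 1 against 1, 3, 9 and 7. The pair was equal in all 16 cells that held both, out of 20 and 21, and 62.4% of the Apol9b 3′ words occurred in Apol9a (30.5% in reverse), so it was also counted once per cell by its larger count. That gave 0.532, 0, 0 and 0.337 CPM in control and 2.01, 2.42, 4.42 and 3.50 CPM in cKO mice, every cKO above every control mouse. This order is uncertain in the 2 smallest libraries. The value of cKO replicate 5 was 1 UMI, and in control replicate 3, 3 counts would make 5.09 CPM, above every cKO mouse. The pooled cKO level was 12.2 times the control level (95% counting interval 3.72 to 63.5). This interval covers counting error only, leaves out the spread between mice and is no test of the conditions. The fitted log2 fold changes were 3.64 ± 0.76 (SE) for Apol9a and 3.20 ± 0.68 for Apol9b.

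These transcripts were spread thinly over cell types. In cKO mice they were seen in 22 of 1350 cells, 5 of 92 lymphoid-like, 3 of 18 stromal-like, 4 of 199 cells of monocyte-like cluster 3, 3 of 363 of monocyte-like cluster 6, 4 of 166 macrophage-like cells of cluster 4 and 1 of 118 of cluster 5, and 2 of 186 of cluster 7. In control mice 3 of 1863 cells had a UMI. None of the 413 control and 92 cKO dendritic cell-like cells did, although those were sequenced deepest. With 3 carriers among 1863 control cells and 22 among 1350 cKO cells, this does not set the dendritic cell-like cells apart. At 1 to 3 UMIs per cell no order among the types can be read from these shares.

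The interferon genes to which the Apol9 pair belongs were higher in cKO mice over the same cells. The type I interferon list and the lists described below were chosen with earlier results of these data known. Their counts and p-values are thus given as a description. Of 52 tested genes of a type I interferon list, 48 rose and 0 fell (edgeR quasi-likelihood test, adjusted p under 0.05), all 52 had an unadjusted p under 0.05, DESeq2 called 50 higher and 0 lower, and the median log2 fold change was 1.63. Over all genes tested 2.99% were called higher and 1.48% lower, with a median of -0.03. The largest changes were those of Ifi44 (log2 fold change 4.34 ± 0.39 SE, adjusted p = 0.00012), Slfn4, of the Schlafen family (4.14 ± 0.50, adjusted p = 0.0011), the antiviral oligoadenylate synthetase gene Oas3 (3.08 ± 0.25, adjusted p = 7.1e-05), Ifit1bl1 (3.03 ± 0.45, adjusted p = 0.0043) and Irf7, a transcription factor of the response (2.97 ± 0.29, adjusted p = 0.00024). The 52 genes summed to 6285, 5782, 6983 and 8498 CPM in control and 16020, 16230, 23790 and 20170 CPM in cKO mice. In cluster 4 alone 25 rose and 0 fell (48 with an unadjusted p under 0.05, 25 and 0 by DESeq2), with a median of 1.55. Apol7c, whose promoter window also holds the motif, was low in those same cells. Any link between the match, interferon and this level was not tested.

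**Figure D5:**
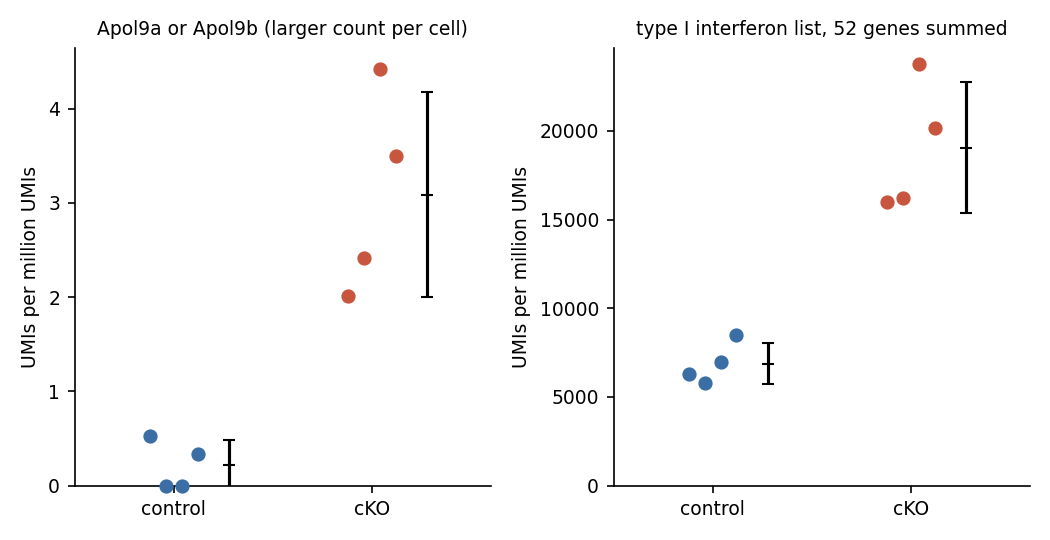
CPM over all cells of each mouse, for the larger count of Apol9a and Apol9b in each cell on the left and for 52 type I interferon genes summed on the right. Points are mice, and bars beside them are the mean and SD of 4 mice. Each cKO mouse lies above each control mouse in both panels (2.01 to 4.42 against 0 to 0.532, and 16020 to 23790 against 5782 to 8498). On the left, the value of cKO replicate 5 is 1 UMI, and 3 counts in control replicate 3 would make 5.09 CPM.

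Of 24 tested genes of an interferon gamma list, 8 rose and 2 fell over all cells, with a median log2 fold change of 0.89. Among all 11387 genes tested there, 2.99% were called higher and 1.48% lower. The genes that fell were Ciita (-0.98 ± 0.24 SE, adjusted p = 0.039) and Irf8 (-0.89 ± 0.18, adjusted p = 0.020), named after their values were seen, a regulator of antigen presentation and a transcription factor of dendritic cells. Those that rose included the guanylate-binding protein gene Gbp6 (2.12 ± 0.29 SE, adjusted p = 0.0025), Iigp1 (2.11 ± 0.33, adjusted p = 0.0058) and the chemokine gene Cxcl10 (1.31 ± 0.21, adjusted p = 0.0062), as well as Cd274 and Gbp4 by 1.37 and 1.34. In cluster 4, 0 of the 24 rose or fell by edgeR or by DESeq2 (8 with an unadjusted p under 0.05 by edgeR, median 0.25). The dendritic cell maturation list, which holds Ccr7 and Fscn1, had 3 of 29 genes higher over all cells (Marcksl1, Bcl2l1 and Samsn1, by 0.97 to 1.46), 0 lower, 13 with an unadjusted p under 0.05 and 4 higher and 1 lower by DESeq2. In cluster 4 none of the 29 passed with either tool, 4 having an unadjusted p under 0.05 by edgeR.

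Among 19 tested genes of other apolipoproteins and lipoprotein handling, the cholesterol exporter gene Abcg1 (log2 fold change 1.37 ± 0.23 SE, adjusted p = 0.0073) and the lysosomal cholesterol carrier gene Npc2 (0.69 ± 0.16, adjusted p = 0.030) rose and Apoo, of the mitochondrial MICOS complex, fell (-0.92 ± 0.23, adjusted p = 0.046) over all cells. In cluster 4, 0 of the 19 passed by edgeR or DESeq2, and 3 had an unadjusted p under 0.05 by edgeR. Of all 11387 genes tested over all cells, 2.99% were called higher and 1.48% lower. Over all cells 7 of 10 monocyte markers rose and 13 of 16 dendritic cell markers fell, and dendritic cell-like cells made up 19.9 to 27.3% of control and 4.545 to 8.99% of cKO cells. The part of this shift in the values over all cells was not tested.

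The remaining members left little to compare. Apol6 gave 1 UMI in control replicate 3 and 1 in cKO replicate 5, both in stromal-like cells. Apol7d had 8 UMIs, 5 of them in control cells of monocyte-like cluster 3. Both Apol10a UMIs came from dendritic cell-like cells of cKO replicate 6, the Apol11b UMIs from 1 lymphoid-like and 1 dendritic cell-like cell, and both Apol8 UMIs from barcodes that failed the limits. Differences between conditions were not detectable for these genes at this depth.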

How the data were processed

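The authors aligned 10x 3′ reads with Cell Ranger (STAR 2.5.3a, mm10) and deposited raw UMI counts per gene and cell for 8 libraries, aggregated without down-sampling. The members and gene lists were chosen with earlier results of these data known. Cells were kept at log10 UMIs of at least 2.8, log10 genes of at least 2.6 and a mitochondrial share of at most 5%, and 89 rows without a symbol stayed out of the tests. Counts were normalised with scran 1.30.0, and 8 principal components of 11813 genes (134 Apol and list genes left out) were clustered by Ward's method into 9 clusters, named from marker lists. Doublets were marked per mouse with Scrublet (scanpy 1.11.5) and kept in the main values. Counts were summed per mouse, and per mouse and cluster with at least 20 cells, and tested with the quasi-likelihood test of edgeR 4.0.16 (TMM, Benjamini-Hochberg adjustment, threshold 0.05) for genes above 1 CPM in at least 3 sums and seen in at least 20 cells. These steps were tested on simulated data. DESeq2 1.42.0, no filter, other clusterings, doublets left out and each mouse left out were alternatives. Differences between classes are on the scale of log2(CPM + 10), and the planned test of them is not reported, because the family was chosen with those levels known. Genes named beside the family were the 5 most like Apol7c among those with enough counts and up to 5 genes with the largest called change per list. Intervals are 95% exact ones, and a count of 0 was given a limit of 3 counts. The depth ranged from 497531 to 3762314 UMIs per mouse. Some sequences and 1 gene are not reported here.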

Additional observations from a re-analysis of the deposited data

Results flagged for a closer look

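In the macrophage-like cells of cluster 4, cKO replicate 5 had an Apol7c level of 0 CPM, while the other cKO mice lay between 48.6 and 50.3 CPM. The gap to the nearest mouse was 0.965 of the range of the 4 mice, above the 95% critical value of Dixon's test for 4 values. Chance alone passes that value in about 1 in 20 groups, and 19 groups were looked at. This mouse gave 20 such cells, with 122541 UMIs in all.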

How the results depend on the processing

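No paired analysis was possible because the labels name no pairs of control and cKO mice. Apol7c kept its direction under every alternative run, with log2 fold changes of -2.50 to -1.93 over all cells and -2.73 to -2.29 in cluster 4 when single mice were left out. The 510 calls over all cells became 787 with no filter on low counts and 328 with dendritic cell-like, lymphoid-like and stromal-like cells left out, and 145 to 712 without single mice (166, 145, 187 and 267 without control replicates 1 and 2 and cKO replicates 7 and 8). The 71 calls in cluster 4 became 144 with no filter, 160 with graph clustering, 24 in the cluster with most macrophage markers of 12 (chosen after seeing the data), and 27 to 119 without single mice (37, 33, 119 and 27 without control replicates 1, 2 and 3 and cKO replicate 8). Calls in the type I interferon list were 32 to 48 without single mice, in the interferon gamma list 4 to 13 (10 with all mice), in the lipoprotein list 1 to 2 (3 with all mice) and in the dendritic cell maturation list 0 to 8 (3 with all mice, 5 with DESeq2). The difference between dendritic cell-like cells and cluster 4 in Apol7c was -2.14 to -1.67 without single mice. Without thinning, the share of control cells with Apol7c was 22.0% in place of 9.95%. The causes of these shifts were not tested. Apol6, Apol8, Apol10a and Apol11b had 2 UMIs or fewer in the cells kept, too few for a comparison.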
